A study of Mus musculus with 16 samples.

Results

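The cytosolic ribosomal protein genes encode the proteins of the large and small subunits of the cytoplasmic ribosome. They were taken by symbol, as the Rpl and Rps genes together with Rplp0, Rplp1, Rplp2 and Rpsa, without entries marked as pseudogenes by a -ps ending. Of the 49139 genes with a symbol in the count tables, 83 matched, and 79 of these reached at least 10 counts in 3 libraries. They comprised 48 genes of the large subunit and 31 of the small subunit. In GENCODE M21, 77 of the 79 were protein coding, and Rpl6l and Rpl32l were processed pseudogenes. The testis paralogues Rpl10l and Rpl39l, the muscle paralogue Rpl3l, and Rps4l stayed below the count minimum. Rpl10l had 0 counts in all 16 libraries, and the highest count of any of these 4 genes in a library was 31.

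RNA was sequenced in bulk from sorted cells of tumours of 4T07, a mouse mammary carcinoma line, grown in a mammary fat pad of female hybrids of C57BL/6J and Balb/cJ mice. The 250000 cells injected were a mixture, in equal parts, of 4T07 cells transduced with GFP and 4T07 cells transduced with mCherry. Jedi T cells, which recognise GFP and here lacked PD1, were given by vein on day 7 or on day 15 of tumour growth, and tumours were taken 7 days after that. Surviving GFP cells and untargeted mCherry cells of the same tumours made up the day 7 GFP and day 7 mCherry groups, with 3 libraries each, and likewise the day 15 GFP and day 15 mCherry groups. The control mCherry group had 4 libraries, from 4T07 tumours that held mCherry cells alone and received no Jedi T cells. No GFP cells came from a tumour without Jedi T cells, so the reporter and the T cell attack cannot be told apart. The sources used here give no age for the mice, and the number that follows the strain in the labels differs from sample to sample. Per the labels, RNA was extracted by one of a pair of routes, with no record of which library took which. Run 1 of the sequencer held the 6 libraries of day 7 and run 2 held the 10 others, so the day of injection and the run cannot be told apart. Tumour numbers (2, 3 and 4 on day 7, and 1, 2 and 3 on day 15) are those of the columns. The cells were stained for CD45 and sorted, and no source used here states the gate.

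Ribosomal proteins are made in equimolar amounts, assemble onto ribosomal RNA in the nucleolus, and are encoded by some of the most abundant mRNAs of a growing cell. Their mRNAs begin with a tract of pyrimidines (the 5′ terminal oligopyrimidine or TOP motif), through which mTOR and the cap-binding protein Larp1 control their translation. Unassembled Rpl5 and Rpl11, held in a complex with a ribosomal RNA, bind Mdm2 and thereby stabilise p53. In tumours these genes are known as markers of growth and protein synthesis capacity.

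The start sites of 8 genes on which the comparisons turned are shown because the TOP motif lies there. The sequences are from RefSeq on GRCm38.p6 and run from 15 bases before the annotated start, 30 bases in all, written 5′ to 3′ on the gene's strand. Capitals mark a run of at least 8 pyrimidines (C or T) within 10 bases of the start, as far as it lies in the bases shown. The first 4 genes were higher in GFP than in mCherry cells on day 15, and the other 4 were lower in GFP cells on day 7.
Rps12 (chr10:23787195-23787224, minus strand): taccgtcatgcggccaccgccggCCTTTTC
Rps27 (chr3:90213634-90213663, minus strand): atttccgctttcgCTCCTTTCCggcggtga
Rpl39 (chrX:37085208-37085237, minus strand): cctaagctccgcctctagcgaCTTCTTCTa
Rps23 (chr13:90923107-90923136, plus strand): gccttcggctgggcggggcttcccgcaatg
Rpl35 (chr2:39005117-39005146, minus strand): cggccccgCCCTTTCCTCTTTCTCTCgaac
Rpl7a (chr2:26910792-26910821, plus strand): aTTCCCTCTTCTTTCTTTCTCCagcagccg
Rps27l (chr9:66946071-66946100, plus strand): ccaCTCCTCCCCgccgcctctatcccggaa
Rpl13a (chr7:45128731-45128760, minus strand): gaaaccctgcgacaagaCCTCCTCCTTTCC
Such a run was present in 7 of these 8 genes and absent in this window of Rps23.

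A promoter entry was matched for 58 of the 79 genes. A pyrimidine run of at least 8 bases within 10 bases of the start was found in 27 of the 58 (46.6%), against 13.9% of 27025 mouse promoters. The start base itself was a C in 20 of 58 genes (34.5%), against 16.2% of all promoters. The letters CCGGAAG, the core bound by GABP and other ETS factors, were found on either strand of the 300 base window in 23 genes (39.7%), against 9.12% of all promoters. The letters AAGATGG, bound by YY1, were found in 8 genes (13.8%), against 6.48%, and the letters of both motifs may share bases. These are matches of letters and were not tested as sites.

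Libraries held 9412040 to 32808354 counts, and mitochondrially encoded genes took 1.12% to 2.00% of them. The 79 genes together took 3.79% to 5.37% of the counts of a library. The 3 day 7 GFP libraries gave 5.26%, 4.97% and 4.49% in tumours 2, 3 and 4, against 5.37%, 4.84% and 4.96% in the day 7 mCherry libraries of the same tumours. In day 15 GFP libraries the share was 5.06%, 4.27% and 4.33% in tumours 1, 2 and 3, against 3.79%, 4.08% and 4.19% in the day 15 mCherry libraries. The 4 control libraries had 3.99%, 4.58%, 4.58% and 3.94%. The colours overlapped on day 7. On day 15 every GFP library lay above every mCherry library, with the widest gap in tumour 1, whose GFP library had the highest share and whose mCherry library the lowest of that day. Means were 4.55% ± 0.442 (SD, n = 3) in day 15 GFP cells and 4.02% ± 0.207 (n = 3) in day 15 mCherry cells, with 4.27% ± 0.357 (n = 4) in the controls, whose range overlapped that of each colour. Adding the 271 ribosomal protein pseudogene entries, or leaving mitochondrially encoded counts out of the total, moved no group's mean by more than its SD.

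**Figure D1:**
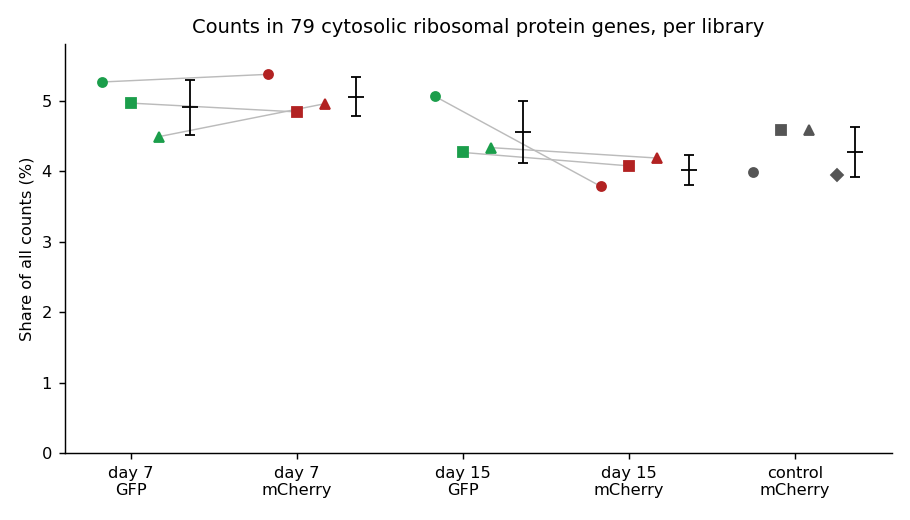
Share of all counts (%) in the 79 ribosomal protein genes for each of the 16 libraries, with grey lines joining the GFP and mCherry libraries of a tumour and black bars for the mean and SD of each group. The 3 day 15 GFP libraries sit between 4.27% and 5.06%, above the 3 day 15 mCherry libraries, while the day 7 colours overlap.

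Levels between genes were compared in the control libraries per length, as CPM (library counts scaled to a common total) per kilobase of the principal transcript. Rplp1, an acidic protein of the ribosomal stalk that recruits elongation factors, had the highest such level, 1964 ± 313 (SD, n = 4), and Rpl28 came next at 1650 ± 159. Rps28, a small-subunit protein, had 1486 ± 211, and Rpl41, the shortest ribosomal protein, had 1336 ± 225. Between neighbours in this order the ranges of mean ± SD overlapped. At the other end of the 77 coding genes, Rps27l stood at 94.9 ± 4.50 and Rpl26, a large-subunit protein near the exit tunnel, at 125 ± 21.4. The processed pseudogenes Rpl6l (1.86 ± 0.220) and Rpl32l (1.27 ± 0.520) lay far lower. Ribosomal protein genes have many near-identical processed copies, and no source used here states how reads shared between copies were counted, so the level of a single gene is uncertain.

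The profile of the 77 coding genes differed between the sequencing runs. The ratio of mean CPM in day 7 mCherry cells over control cells ranged from 0.241 for Rpl13a to 6.51 for Rps27l, with a median of 1.18. It exceeded 2 in 9 genes, among them Rpl37a (3.03) and Rps2 (2.51), and lay under 0.5 in 4 genes, which were Rpl13a, Rpl29 (0.342), Rpl28 (0.369) and Rpl23a (0.431). Day 15 mCherry cells, sequenced in the same run as the controls, gave ratios of only 0.837 to 1.08, with a median of 0.948. Across the 77 genes the log2 mean CPM of the controls had r = 0.655 with day 7 mCherry cells and r = 0.995 with day 15 mCherry cells. These correlations describe genes that share libraries and lengths. All further comparisons were therefore made within a run, or as the difference of within-tumour effects.

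**Figure D2:**
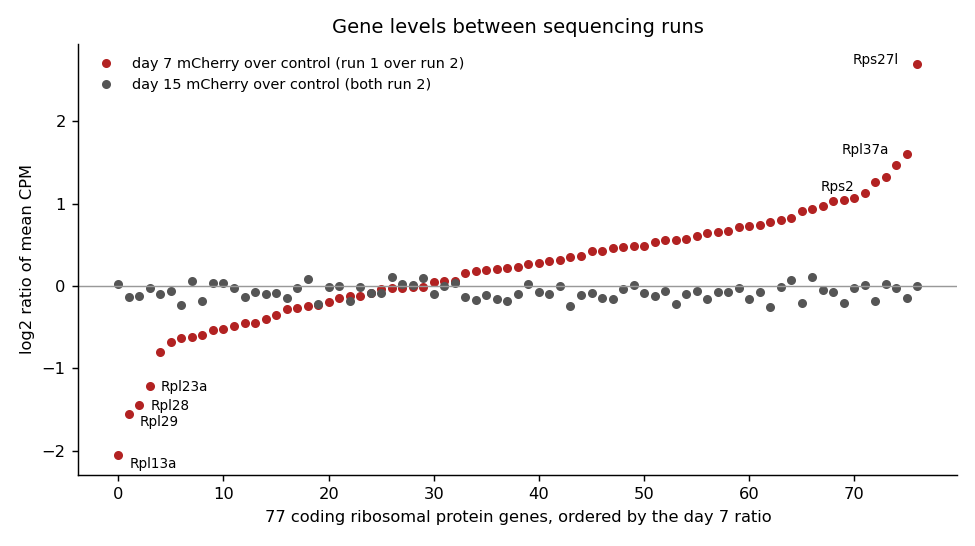
Log2 ratio of mean CPM for the 77 coding ribosomal protein genes, ordered by the ratio of day 7 mCherry cells over control cells (red), with the ratio of day 15 mCherry cells over control cells in grey. The red points run from Rpl13a (ratio 0.241) to Rps27l (6.51), while the grey points stay near 0 on the log2 scale (ratios 0.837 to 1.08).

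In tumours injected on day 15, 14 called ribosomal protein genes were higher in the surviving GFP cells than in the untargeted mCherry cells of the same tumour. The edgeR quasi-likelihood test, blocked by tumour and adjusted by Benjamini-Hochberg over all 14260 genes tested, called 14 of the 78 tested members higher and 0 lower. Of all genes tested, 8.94% were called higher and 10.6% lower. The members' share called (17.9%) was thus close to the 19.5% of all genes called in either direction, and all 14 calls were in one direction. Members had a median log2 fold change of 0.22, against 0.01 over all genes, with 71 positive and 7 negative. At an unadjusted p under 0.05, 35 members were higher and 0 were lower, against 16.1% and 17.2% of all genes. The groups did not overlap in 40 of 78 members, all higher in GFP cells, against 17.3% of all genes higher and 19% lower without overlap. In these bulk libraries fewer cells of a type and less RNA per cell cannot be told apart, and CPM are shares of a library rather than amounts per cell.

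Both subunits took part, with 7 of 31 small-subunit genes called (median 0.23) and 7 of 47 large-subunit genes (median 0.22). In the small subunit, Rps12 (chromosome 10, 23785183 to 23787275, minus strand, in GENCODE M21 on GRCm38) was highest in log2 fold change. Its level was 749, 565 and 649 CPM in day 15 GFP cells of tumours 1, 2 and 3, against 386, 436 and 449 CPM in day 15 mCherry cells. Every GFP library lay above every mCherry library, and tumour 1 had both the highest and the lowest value. The log2 fold change was 0.62 (SE 0.11, edgeR adjusted p = 0.00439), a rise of 1.54 times.

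Rps27, a zinc finger protein of the small subunit, had 462, 415 and 408 CPM in GFP cells against 267, 310 and 328 CPM in mCherry cells of day 15. It rose without overlap, with a log2 fold change of 0.51 (SE 0.10, edgeR adjusted p = 0.00717). Rps23, which sits at the decoding centre, had 534, 444 and 429 CPM in GFP cells against 310, 341 and 339 CPM in mCherry cells. It too rose in all 3 tumours, by 0.50 on the log2 scale (SE 0.10, edgeR adjusted p = 0.00765). Rps20, a protein of the small-subunit head, rose by 0.46 (SE 0.10, edgeR adjusted p = 0.00980), with 690, 605 and 669 CPM against 426, 474 and 535 CPM. Rps21, Rps26 and Rps29 rose as well, with log2 fold changes of 0.40, 0.37 and 0.35. Rps21 was 1 of 2 genes in which 1 control library lay apart (control 4, 322 CPM), a library that does not enter this comparison.

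In the large subunit, Rpl39 (chromosome X, 37082520 to 37085402, minus strand), a small protein that lines the exit tunnel, had 411, 340 and 361 CPM in GFP cells against 237, 266 and 251 CPM in mCherry cells. Its log2 fold change was 0.56 (SE 0.10), with the smallest edgeR adjusted p of the family (0.00345). Rpl22, an RNA-binding protein needed for T cell development in mice, had 486, 380 and 395 CPM in GFP cells against 291, 332 and 322 CPM in mCherry cells. It rose by 0.41 (SE 0.11, edgeR adjusted p = 0.0253), and all GFP libraries were above all mCherry libraries. Rpl13, Rpl36a and Rpl35a rose as well, with log2 fold changes of 0.37, 0.35 and 0.33.

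The stalk proteins did not all do the same. Rplp1 had 1283, 1041 and 1066 CPM in day 15 GFP cells against 757, 863 and 891 CPM in day 15 mCherry cells, and rose by 0.43 (SE 0.11, edgeR adjusted p = 0.0246). Its partner Rplp2 had 579, 457 and 516 CPM against 392, 463 and 466 CPM, where the colours overlapped (log2 fold change 0.23, SE 0.11, edgeR adjusted p = 0.180). Rplp0, the base of the stalk, had a log2 fold change of 0.12 (SE 0.11, edgeR adjusted p = 0.466). The difference between these genes was not itself tested.

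Some members not called on day 15 have known roles beyond the ribosome itself. Rps6, the substrate of S6 kinase, had 696, 610 and 581 CPM in GFP cells against 500, 572 and 564 CPM in mCherry cells, with a log2 fold change of 0.20 (SE 0.10, edgeR adjusted p = 0.194). Rps3, which also acts in DNA repair, had 0.27 (edgeR adjusted p = 0.0891), and Rpl38, needed for translation of Hox mRNAs in mice, had 0.26 (edgeR adjusted p = 0.104). In each of these 3 genes every GFP library lay above every mCherry library, yet the test was not passed. Rpl5 and Rpl11, the Mdm2-binding pair, had log2 fold changes of 0.17 and −0.02 (edgeR adjusted p = 0.273 and 0.905). Rpsa, known also as the laminin receptor precursor, had 0.07 (edgeR adjusted p = 0.682), and Rps19, mutated in human Diamond-Blackfan anaemia, had 0.22 (edgeR adjusted p = 0.164). The lowest member was Rpl35, at 460, 383 and 389 CPM in GFP cells against 440, 465 and 486 CPM in mCherry cells (log2 fold change −0.18, edgeR adjusted p = 0.231).

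**Figure D3:**
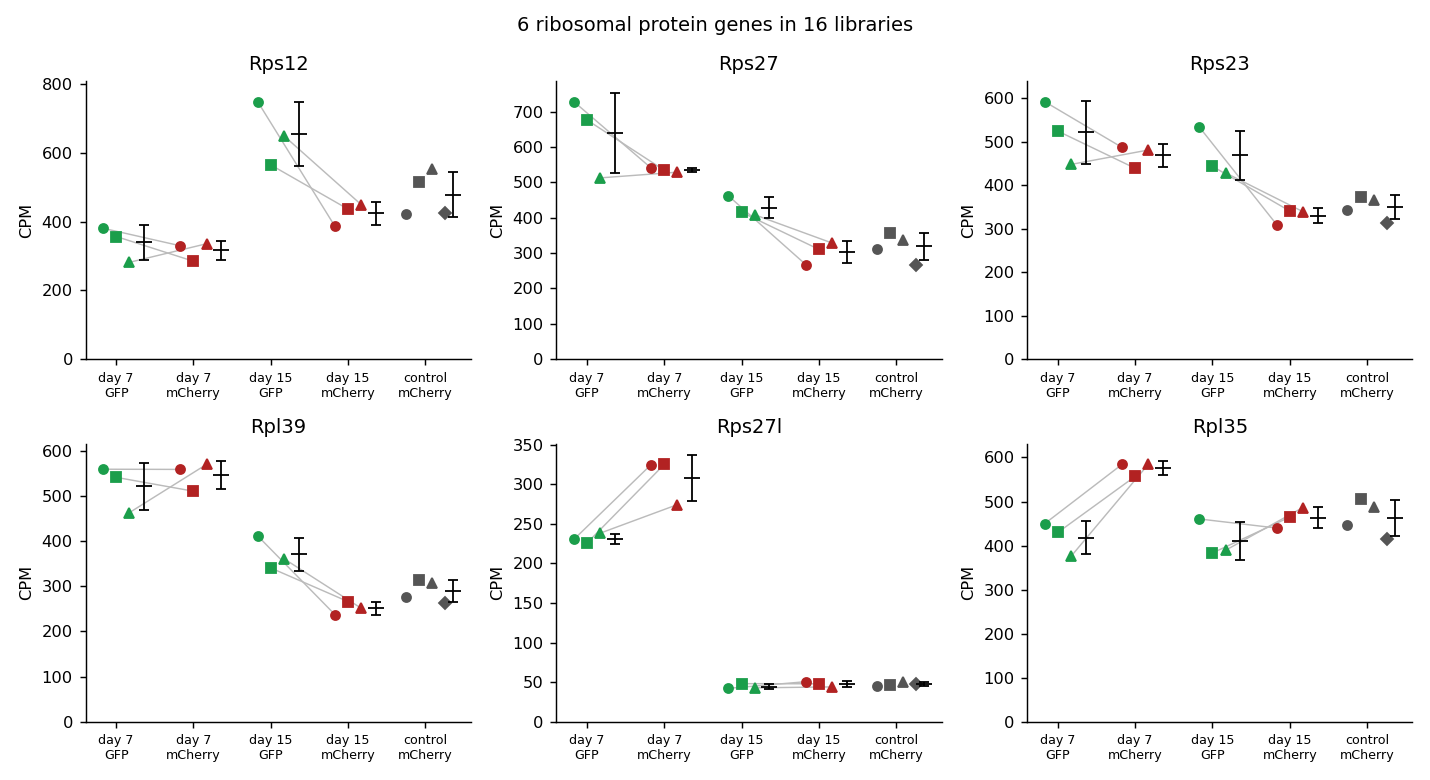
CPM of 6 ribosomal protein genes in the 16 libraries, with grey lines joining the GFP and mCherry libraries of a tumour and black bars for the mean and SD of each group. Rps12, Rps27, Rps23 and Rpl39 are higher in all 3 day 15 GFP libraries than in the day 15 mCherry libraries, and Rps27l and Rpl35 are lower in all 3 day 7 GFP libraries than in the day 7 mCherry libraries.

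The size of the day 15 difference varied between tumours. The median difference of the 78 members, GFP minus mCherry cells on a log2 CPM scale with 0.5 added, was 0.49 in tumour 1, 0.08 in tumour 2 and 0.09 in tumour 3. In tumour 1, 77 of the 78 members were higher in GFP cells, against 55 in tumour 2 and 54 in tumour 3. In all 3 tumours 45 members were higher and 0 were lower, against 27.3% and 27.6% of all genes. Without tumour 1 the members' median fell to 0.08, 9 were called higher and 2 (Rpl35 and Rpl7a) lower. Without tumour 2 the count called higher was 22, and without tumour 3 it was 8. How many of all genes were called in each of these fits was not counted. Rps12, Rpl39, Rps27, Rps23, Rps20 and Rps21 were called in all 3 of these fits. The mitochondrial share of the tumour 1 libraries was 1.50% in GFP cells and 1.54% in mCherry cells, the highest of day 15. In tumours 2 and 3 it was 1.36% and 1.37% in GFP cells and 1.19% and 1.32% in mCherry cells.

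**Figure D4:**
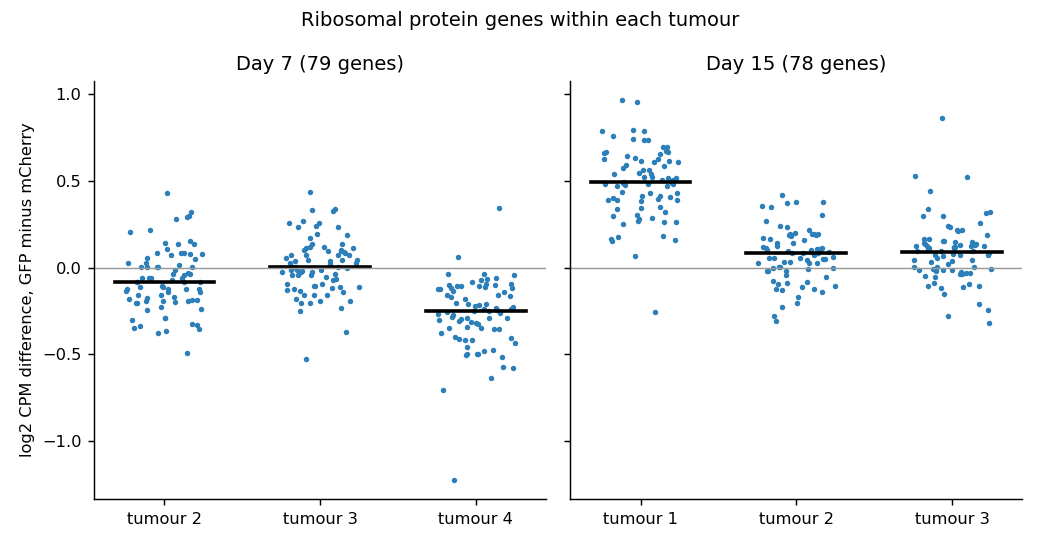
Difference in log2 CPM (0.5 added), GFP minus mCherry cells, of each ribosomal protein gene within each tumour, with black bars for the median. On day 7 the medians are −0.09, 0.00 and −0.25 in tumours 2, 3 and 4, and on day 15 they are 0.49, 0.08 and 0.09 in tumours 1, 2 and 3.

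Untargeted day 15 mCherry cells were set against control mCherry cells to ask whether the neighbours of attacked cells differed from cells of untreated tumours. The sample records used here give no harvest time for the control tumours, which also held no GFP cells. Tumour age and the presence of GFP cells thus cannot be told apart from the attack in comparisons with controls. No member passed, and neither did any of the 14800 genes tested (0%), in the edgeR quasi-likelihood test. At an unadjusted p under 0.05 it gave 1 member (Rpl39, lower) and 14.2% of all genes, and DESeq2 called 0 members, with 3 at an unadjusted p under 0.05. The members' median log2 fold change was −0.08, with 18 positive and 60 negative, against a median of −0.00 over all genes. Rpl39 had 237, 266 and 251 CPM in day 15 mCherry cells against 276, 314, 307 and 262 CPM in controls (log2 fold change −0.21, SE 0.08, edgeR adjusted p = 0.321), with overlapping groups. The only member without overlap, named after its values were seen, was Rpl4, at 1320, 1439 and 1370 CPM against 1290, 1270, 1316 and 1226 CPM (log2 fold change 0.11, edgeR adjusted p = 0.476). Of all genes, 8.49% were higher and 6.01% lower without overlap. Without control 4, 14 members reached an unadjusted p under 0.05 by edgeR, while leaving out any other library gave 0 to 2. None of these fits called a member, and the share of all genes at that level was not counted in them.

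Day 15 GFP cells against the same controls gave 5 members called higher and 0 lower of 79. This is close to the 6.09% of all 14801 genes tested that were called higher, while 6.97% were called lower and 13.1% either way. The median log2 fold change was 0.14, with 69 positive and 10 negative, against −0.00 over all genes. At an unadjusted p under 0.05, 18 members were higher and 0 lower, against 15.6% and 16.6% of all genes. In 16 members the groups did not overlap, all higher in GFP cells, against 14.7% of all genes higher and 15.2% lower. Among the calls were Rps27 (log2 fold change 0.43), Rps23 (0.42), Rpl22 (0.39) and Rpl39 (0.36), with edgeR adjusted p from 0.0327 to 0.0466. Leaving out 1 library reduced the 5 calls to 1 without GFP tumour 1, GFP tumour 2, control 1 or control 3, to 2 without GFP tumour 3 or control 2, and to 3 without control 4. Calls over all genes were not counted in those fits. Rps12 rose past the mCherry cells of its own tumours but was not called against controls, with 749, 565 and 649 CPM in day 15 GFP cells against 422, 514, 554 and 423 CPM in controls (log2 fold change 0.45, SE 0.13, edgeR adjusted p = 0.0548). These comparisons share libraries with each other and with that of GFP against mCherry cells, and are not independent.

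In tumours injected on day 7 fewer members were called than on day 15. The edgeR quasi-likelihood test gave 1 member higher and 4 lower of 79 in GFP cells. Of all 14578 genes tested, 8.89% were called higher and 9.33% lower, so members were called less often than the 18.2% of all genes in either direction, a difference that was not itself tested. The members' median log2 fold change was −0.08, against −0.00 over all genes, with 20 positive and 59 negative. At an unadjusted p under 0.05, 1 member was higher and 12 were lower, against 15.9% and 16.1% of all genes. The groups did not overlap in 27 members, all lower in GFP cells, against 18.2% of all genes lower and 15.9% higher.

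Among the members that fell, Rpl35, a large-subunit protein at the exit tunnel, had 450, 430 and 375 CPM in day 7 GFP cells against 584, 557 and 584 CPM in day 7 mCherry cells. Its groups were clearly apart (log2 fold change −0.45, SE 0.10, edgeR adjusted p = 0.0156). Rps27l (chromosome 9, 66946086 to 66949516, plus strand), the p53-induced paralogue of Rps27, had 230, 226 and 238 CPM in GFP cells against 325, 325 and 274 CPM in mCherry cells. It fell by 0.39 on the log2 scale (SE 0.11, edgeR adjusted p = 0.0289). Rpl13a (chromosome 7, 45125558 to 45128761, minus strand) is released from the ribosome to silence inflammatory mRNAs in human monocytes given interferon gamma. It had 93.1, 88.6 and 79.9 CPM in GFP cells against 120, 105 and 119 CPM in mCherry cells, and fell by 0.38 (SE 0.10, edgeR adjusted p = 0.0289). Rpl7a, a large-subunit protein, had 476, 487 and 402 CPM in GFP cells against 611, 572 and 602 CPM in mCherry cells, and fell by 0.37 (SE 0.11, edgeR adjusted p = 0.0355). In all 4 genes every GFP library was below every mCherry library.

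Of the other named members on day 7, Rpl11 had 360, 346 and 295 CPM in GFP cells against 415, 386 and 407 CPM in mCherry cells, without overlap (log2 fold change −0.26, SE 0.11, edgeR adjusted p = 0.121). Rpl5 had −0.14 (edgeR adjusted p = 0.374), also without overlap. Rps6 had −0.04, Rplp0 −0.08, Rpsa −0.07 and Rps3 −0.07, none of them called. The members called higher on day 15 lay on both sides of 0 here. Rps27 had a log2 fold change of 0.26 (edgeR adjusted p = 0.162), Rps12 0.11 and Rps23 0.16, while Rpl39 had −0.06, Rps21 −0.11 and Rpl35a −0.12.

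The number of day 7 calls varied with the tumours fitted. Tumour medians of the 79 members were −0.09 in tumour 2, 0.00 in tumour 3 and −0.25 in tumour 4, where 28, 41 and 2 members were higher in GFP cells. In all 3 tumours 35 members were lower and 1 was higher, against 27.5% and 24.5% of all genes. Without tumour 2 or without tumour 3 there were 0 calls by edgeR, with 7 and 5 members at an unadjusted p under 0.05. Without tumour 4 there were 9 calls higher and 9 lower, the original 5 among them. The share of all genes called was not counted in these fits. Across them the 4 members called lower kept negative log2 fold changes. These were −0.49 to −0.35 for Rpl35, −0.49 to −0.32 for Rps27l, −0.45 to −0.29 for Rpl13a and −0.44 to −0.27 for Rpl7a. The calls added as higher without tumour 4 were Rps27, Rps12, Rps20, Rps23, Rplp1, Rpl13, Rpl12 and Rpl36. The first 6 of these were also called higher on day 15, and Rpl12 and Rpl36 were not. Rpl15, Rpl18, Rpl7, Rps14 and Rps27a were added as lower, and none of them was called on day 15.

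The GFP effect of day 15 minus that of day 7 was positive in all 79 members, with a median of 0.31, against −0.01 over all genes. Since a median below 0 on day 7 and above 0 on day 15 fixes much of this direction, it is a description. In the edgeR quasi-likelihood test 0 members were called, against 0.211% of the 16626 genes tested, and 27 members, all positive, had an unadjusted p under 0.05, against 4.46% of all genes positive and 5.78% negative. DESeq2 called 1 member, Rpl39. For Rpl39 the difference of effects was 0.61 (SE 0.16, edgeR adjusted p = 0.158), the smallest of the family, and for Rps12 it was 0.51 (SE 0.18, edgeR adjusted p = 0.352). The difference was smallest for Rpl4 (0.06, SE 0.15). Without day 15 tumour 1 the median of the difference was 0.17 and 5 members had an unadjusted p under 0.05, against 16 without day 7 tumour 2 and 17 without day 7 tumour 4. All genes at that level were not counted in these fits.

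The order of the members was alike on both days, which share no library. Of 78 members tested on both days, 20 were positive on both, 7 negative on both, 51 negative on day 7 and positive on day 15, and 0 the other way. Across the 77 coding members the day 7 and day 15 log2 fold changes had r = 0.794 (rho = 0.744), against r = 0.712 over all 13012 genes tested on both days. Rps27 was towards the upper end on both days, and Rpl35, Rpl7a and Rps27l were at the lower end. With the pseudogene Rpl6l included, r was 0.615 over 78 members. Rpl6l had 1.52, 1.97 and 2.53 CPM in day 15 GFP cells against 1.16, 1.62 and 1.17 CPM in day 15 mCherry cells (log2 fold change 0.60, SE 0.31), and was not called on day 7 either (−0.59, edgeR adjusted p = 0.137). Neither transcript length nor GC content tracked the effects closely. On day 15 r was −0.171 (rho −0.314) with log2 length, −0.206 with GC percent and 0.01 with log2 mean CPM over the 77 coding members, and on day 7 it was 0.01, −0.04 and 0.276. These correlations are across genes of the same libraries and carry no test.

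**Figure D5:**
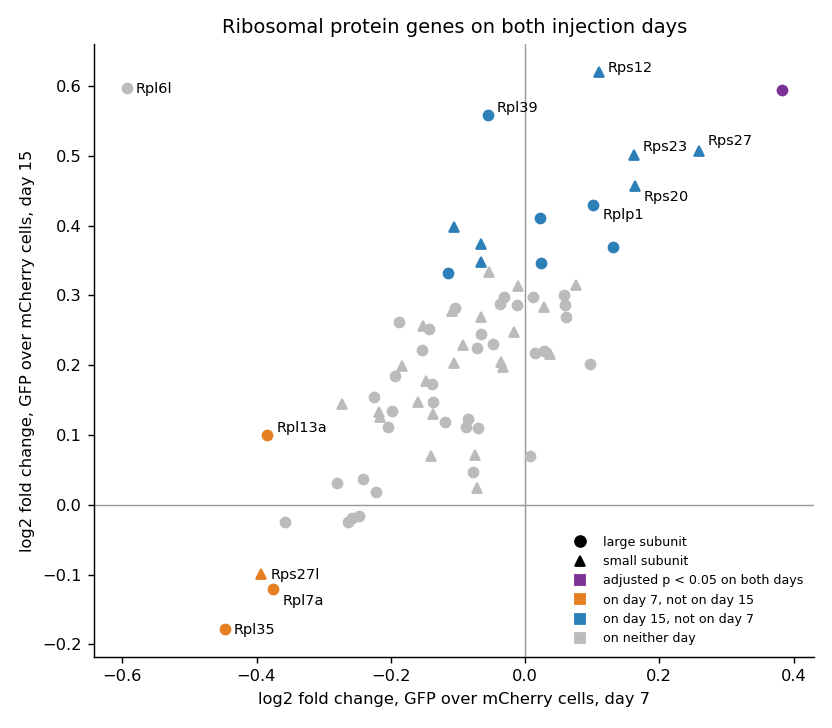
Log2 fold change of GFP over mCherry cells on day 15 (vertical axis) against day 7 (horizontal axis) for the 78 ribosomal protein genes tested on both days, coloured by the edgeR call. The points rise together, most lie above 0 on day 15, and Rpl35 (−0.45 on day 7 and −0.18 on day 15) lies at the lower left.

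Pairs of paralogues are given side by side, and differences within a pair were not tested. Rps27 rose in GFP cells on day 15, whereas Rps27l had 42.2, 48.1 and 42.8 CPM in day 15 GFP cells against 50.6, 47.9 and 44.0 CPM in day 15 mCherry cells (log2 fold change −0.10, edgeR adjusted p = 0.495). Rpl22 rose, and its paralogue Rpl22l1, whose splicing and level Rpl22 restrains in mice, rose too. Rpl22l1 had 86.5, 67.5 and 72.5 CPM in day 15 GFP cells against 39.1, 44.2 and 49.2 CPM in day 15 mCherry cells, with no overlap (log2 fold change 0.77, SE 0.12, edgeR adjusted p = 0.00175). On day 7 Rpl22l1 was not called (log2 fold change 0.31, edgeR adjusted p = 0.0609). Against controls, day 15 GFP cells had a Rpl22l1 log2 fold change of 0.73 (edgeR adjusted p = 0.0134). Fau, which encodes a ubiquitin-like protein fused to a small-subunit protein, and Rack1, a scaffold on the small subunit, were not called on day 15 (log2 fold changes 0.27 and 0.09, edgeR adjusted p = 0.147 and 0.607).

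Genes that build ribosomes were examined beside those that encode ribosomal proteins. Of 34 ribosome biogenesis factors tested, 0 rose and 7 fell in day 15 GFP cells (median −0.09), against 8.94% of all genes called higher and 10.6% lower. Among them were Nop58 and Dkc1, of the small nucleolar ribonucleoproteins (log2 fold changes −0.40 and −0.38, edgeR adjusted p = 0.00571 and 0.0138). Ncl, the nucleolar protein nucleolin, fell by 0.29 (edgeR adjusted p = 0.0416), with 921 ± 22.1 CPM in GFP cells, against 1129 ± 79.3 CPM in mCherry cells (SD, n = 3 each). On day 7, 4 rose (Nop2, Pwp2, Mybbp1a and Rrp12) and 2 fell (Ncl and Nop10), with a median of 0.15. Of all genes, 8.89% were called higher and 9.33% lower on that day. Of 14 RNA polymerase I genes, 0 were called on day 15 by edgeR (median 0.00), and 1 rose on day 7 (Taf1c, a promoter selectivity factor subunit, log2 fold change 0.94).

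The counts of the translation and stress lists that follow stand against 8.94% of all genes called higher and 10.6% lower on day 15, and 8.89% and 9.33% on day 7. Several are near those shares, and no list was tested as a whole. Of 17 elongation factors and other TOP mRNAs, 4 rose and 0 fell in day 15 GFP cells (median 0.16), and these were Tpt1 (log2 fold change 0.50), the elongation factor Eef2 (0.41), Eif4a2 (0.33) and Eif3f (0.28). On day 7, 0 rose and 1 fell (Eef1d, −0.47), with a median of −0.12. Of 27 initiation factors, 1 rose on day 15 (Eif5, 0.40) and 5 fell (Eif5a, Eif4g1, Eif3j1, Eif3b and Eif2s1, −0.36 to −0.26), with a median of −0.15. On day 7, 1 rose (Eif5, 0.36) and 1 fell (Eif4a1, −0.37).

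Of 23 mTOR and translation control genes, 6 rose and 4 fell in day 7 GFP cells (median 0.09). Myc, which drives ribosome production, had 140 ± 5.96 CPM in GFP cells, against 85.7 ± 7.35 CPM in mCherry cells (SD, n = 3 each; log2 fold change 0.73, edgeR adjusted p = 0.000853). Larp1, Rragc, Mtor, Tsc2 and Rptor rose with log2 fold changes of 0.68, 0.58, 0.50, 0.46 and 0.43. Among the 4 that fell were Ddit4 and Deptor, by 1.91 and 0.71. Ddit4 was low on day 7, at 2.2, 1.5 and 1.4 CPM in GFP cells against 4.9, 4.1 and 11.4 CPM in mCherry cells. The list holds both activators and inhibitors of mTOR, and its activity was not tested. On day 15, 1 rose (Sesn2, a stress-induced mTORC1 inhibitor, 0.55) and 2 fell (Deptor, −0.78, and Ddit4, −0.68). Whether a call on day 7 differs from its absence on day 15 was tested in the difference of effects, where 0 of these 23 genes were called. Of 9 p53 target and nucleolar stress genes, 2 rose on day 7 (Cdkn1a, 0.45, and Mdm2, 0.44) and 4 on day 15 (Cdkn1a, 0.68, Sesn2, 0.55, Ccng1, 0.46, and Mdm2, 0.39), and none was called lower on either day. Rps27l, itself a p53 target, fell on day 7 (above). Of 14 ribosome rescue genes, 2 rose and 1 fell on day 7 and 0 rose and 1 fell on day 15, the fall being Map3k20, the ribotoxic stress kinase, on both days (−0.59 and −0.83).

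Macrophage and endothelial markers were mostly lower in GFP than in mCherry cells, while fibroblast markers went both ways. Of 12 macrophage markers, all 12 fell in day 7 GFP cells (summed level 105 to 169 CPM in GFP cells, 617 to 874 CPM in mCherry cells). On day 15, 6 of the 9 tested fell (55.1 to 73.2 CPM in GFP cells, 88.6 to 110 CPM in mCherry cells, 78.2 to 200 CPM in controls). Of these 9, 1 had a positive log2 fold change (0.67) and was not called. All 8 endothelial markers fell on day 7 (6.72 to 8.01 CPM in GFP cells, 27.2 to 57.0 CPM in mCherry cells) and 4 of 8 on day 15 (12.4 to 15.5 CPM in GFP cells, 16.5 to 38.0 CPM in mCherry cells, 18.3 to 86.3 CPM in controls). Cdh5 and Emcn were at 0 in 1 day 7 GFP library, as was Tie1 in another. The 6 T and NK cell markers summed to at most 3.54 CPM in any library, with Cd4 at 0 in all 3 day 7 GFP libraries and Cd3d at 0 in all 3 day 15 mCherry libraries. Of the 5 fibroblast markers, Dcn rose and Pi16 and Lum fell on day 15, and Pi16 fell on day 7. The 5 fibroblast markers summed to 734 to 807 CPM in day 7 GFP cells and 682 to 827 CPM in day 7 mCherry cells, and to 1335 to 1491 CPM in day 15 GFP cells, 866 to 1040 CPM in day 15 mCherry cells and 868 to 1218 CPM in controls. Most of each sum came from Dcn (195 to 768.5 CPM) and Pdgfra (159.5 to 686.5 CPM). Whether these came from host or tumour cells was not tested. Of the tumour line's markers, Krt8, Krt18 and Vim were well detected in all 16 libraries, with Krt8 and Krt18 lower and Cdh1 higher in GFP than in mCherry cells on both days. Epcam stayed at 0.569 to 2.64 CPM, and Krt14 was at 0 in all 6 day 7 libraries. The part of host cells in the ribosomal protein results was not tested.

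The authors' deposited tables, made with DESeq2, list 79 members on day 7 and 78 on day 15. Their headers do not state the direction, and the authors' deposited values carry the signs found here for GFP over mCherry cells. In the authors' deposited table of day 15, 18 members were called higher and 0 lower at an adjusted p of 0.05, with a median log2 fold change of 0.22, against 7.59% of all genes listed called higher and 8.92% lower. In the authors' deposited table of day 7, 1 was called higher and 4 lower, with a median of −0.08, against 7.51% and 7.98% of all genes listed.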

How the data were processed

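Per the labels' protocols, a company sequenced the libraries and returned the raw counts per gene that were tested. The genome was mm10, according to the submitters' processing notes. For the aligner, annotation, strandedness and treatment of multiply mapping reads, no source used here has an entry. The authors' deposited DESeq2 tables hold, per the file headers, log2 fold changes with standard errors, a Wald score, p-values and adjusted p-values, and the mean normalized signal over libraries. One unnamed row of the day 15 table was left out. Of 49315 rows in each count table, 176 had no symbol and were dropped, holding at most 0.0110% of a library's counts.

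Genes were kept by edgeR's filterByExpr (minimum count 10), scaled by TMM and compared by the quasi-likelihood F-test of edgeR 4.0.16 (R 4.3.3), with Benjamini-Hochberg adjustment over all genes tested and a threshold of 0.05. GFP and mCherry cells were compared with tumour as a block; comparisons with controls had no block (3 against 4 libraries). The difference between days used 12 libraries. DESeq2 1.42.0 was an alternative, beside other scalings, filters, no block and leaving out each tumour or library. CPM use TMM factors over all 16 libraries, lengths are those of the shortest principal transcript in GENCODE M21, and SE was taken as the size of the log2 fold change divided by the root of F. The fits were tested on simulated data.

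Day 15 pairs are given by the labels' tumour number. Day 7 pairs rest on shared column numbers (2 to 4, where the labels have 1 to 3), so day 7 and control columns were matched as groups. Residuals of libraries of one number correlated by 0.110 to 0.162 on day 7 and 0.0896 to 0.232 on day 15, against −0.130 to 0.00919 and −0.183 to 0.0186 for other pairs.

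The members, gene lists, tests and alternatives were chosen with earlier results of these data known. Genes are named by rule: the largest called changes in each comparison, the most and least abundant members, members with known roles outside the ribosome and near paralogues; from other lists, mainly the called genes. Not all are printed, and some items are not reported here.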

Additional observations from a re-analysis of the deposited data

Results flagged for a closer look

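In the control mCherry group, the only one of 4 or more libraries, 80 values (79 genes and their joint share) were examined for a single library far from the rest, and 2 stood out, both in control 4. Rpl31 had 544 CPM there, against 667 to 678 CPM in the other 3 controls. Rps21 had 322 CPM there, against 384 to 391 CPM. Chance gives about 1 such case in 20 (5%), so 2 of 80 is no more than chance would give. The share of all counts in the 79 genes was also lowest in control 4, at 3.94%.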

How the results depend on the processing

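No result changed direction past the threshold under the alternatives run. On day 15, the 14 genes higher in GFP than in mCherry cells became 34 with no filter on low counts, 18 with DESeq2 and 10 with no replicate block, and 8 to 22 when 1 tumour was left out, when 0 to 2 were lower. On day 7, the 1 higher and 4 lower genes became 0 and 4 with no replicate block, and 0 to 9 in each direction when 1 tumour was left out. For GFP cells against controls the 5 genes higher became 11 with DESeq2, 3 with library totals in place of TMM, and 1 to 3 when 1 library was left out. For the difference between days, where edgeR called 0 (27 at an unadjusted p under 0.05), DESeq2 called 1 and the fit without a filter 3, and 0 were called when 1 tumour was left out or without the block. The share of all genes called under each alternative was not counted, and the causes were not tested.

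Leaving out 1 tumour or library moved the median log2 fold change of the members between 0.08 and 0.30 (day 15 GFP against mCherry), −0.13 and −0.01 (day 7), 0.05 and 0.21 (day 15 GFP against control), −0.13 and −0.03 (day 15 mCherry against control), and 0.17 and 0.37 (difference between days). TMM factors computed without the ribosomal protein genes gave the same counts called in the comparisons within a day and with controls. No paired analysis was possible for the comparisons with controls because these are other tumours. Leaving out 1 of 3 tumours leaves few degrees of freedom, and counts of genes with many copies stay uncertain at any depth.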
